A study of Mus musculus with 26 samples.

Results

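The 10 genes described here, of the pericellular matrix and of tendon cells, were followed through brown preadipocyte lines that carried different forms of the insulin receptor. They were 6 small leucine-rich proteoglycan genes, *Dcn*, *Bgn*, *Lum*, *Fmod*, *Ogn* and *Aspn*, and 4 genes used as markers of tendon fibroblasts, *Tnmd*, *Scx*, *Mkx* and *Thbs4*. All 10 were among the 52962 genes of the count table, and 9 were among the 15402 genes that passed a filter on low counts (a level above 0.5 CPM, the count scaled to a common library size, reached by 4 libraries or more). *Thbs4* did not pass and is given as raw counts. The genes were picked by name with their levels in these lines already known, in particular the near absence of *Tnmd* where the receptor had no intracellular domain. Differences between lines with and without that domain are therefore described without a test.

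The study asked what the insulin receptor does without its ligand and without its kinase. Poly(A) RNA was sequenced from 26 libraries in 9 groups, with 3 dishes in each group except insulin-treated ∆CT cells, which had 2. All lines came from brown preadipocytes of newborn mice with floxed insulin receptor and IGF-1 receptor alleles, immortalized with the SV40 T antigen, and all had both genes inactivated by adenoviral Cre and were sorted by GFP. Cells with an empty retroviral vector and no receptor are called DKO and were sequenced only in the basal state. The 4 other lines received a human receptor by retrovirus and were sequenced with and without insulin. IR is the normal receptor (B isoform), K1030R has a lysine-to-arginine change that removes kinase activity, ∆CT lacks 79 amino acids at the C-terminal end, and JMO ends after 36 amino acids of the juxtamembrane region and so lacks the kinase domain and C-terminal tail. IR, K1030R and ∆CT are called the lines with the intracellular domain below, and DKO and JMO the lines without it. Confluent cells were kept without serum for 6 h, and insulin was given at 100 nM for 15 min. Each receptor form was carried by 1 line, so the receptor form cannot be told apart from other properties of a line, and p-values measure only the spread between dishes. In such bulk RNA, fewer cells expressing a gene and less RNA of that gene per cell cannot be told apart.

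Small leucine-rich proteoglycans are secreted proteins whose leucine-rich repeats bind collagen fibrils and whose attached chains of chondroitin, dermatan or keratan sulfate space them. Decorin, biglycan and asporin form class I, lumican, fibromodulin and osteomodulin class II, and osteoglycin (mimecan) class III. In tendon, fibroblasts express the transcription factors scleraxis and Mohawk, the membrane glycoprotein tenomodulin and thrombospondin-4, together with decorin, biglycan, fibromodulin and lumican. Preadipocytes are fibroblast-like stromal cells that make much of the same matrix.

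Several of these genes lie side by side in the mouse genome (GRCm38). *Ecm2*, *Aspn*, *Omd* and *Ogn* stand in that order within 119.7 kb at chr13:49504810-49624501, all on the plus strand and inside the span of *Cenpp*, which is read from the minus strand. *Dcn* (chr10:97479609-97518143) and *Lum* (chr10:97565128-97572703) stand with *Kera* and *Epyc* within 202.8 kb, and *Fmod* (chr1:134037254-134048277) stands with *Prelp* and *Optc* within 151.1 kb. *Bgn* (chrX:73483602-73495933) and *Tnmd* (chrX:133850980-133865577) are on the X chromosome, *Scx* is at chr15:76457452-76459458 and *Thbs4* at chr13:92751590-92794818. RefSeq promoter sequences were at hand for 6 of the 10 genes, *Bgn*, *Fmod*, *Ogn*, *Aspn*, *Tnmd* and *Thbs4*, and not for *Dcn*, *Lum*, *Scx* and *Mkx*. The 250 bases before the RefSeq start (GRCm38.p6, plus strand in all 4 cases) are printed here for the genes whose levels separated the lines most clearly, *Ogn* (chr13:49607765-49608014), *Aspn* (chr13:49544193-49544442), *Fmod* (chr1:134037004-134037253) and *Tnmd* (chrX:133850758-133851007). Capitals mark each CANNTG, the E-box that basic helix-loop-helix factors such as scleraxis can bind. This motif reads the same on both strands.
Ogn: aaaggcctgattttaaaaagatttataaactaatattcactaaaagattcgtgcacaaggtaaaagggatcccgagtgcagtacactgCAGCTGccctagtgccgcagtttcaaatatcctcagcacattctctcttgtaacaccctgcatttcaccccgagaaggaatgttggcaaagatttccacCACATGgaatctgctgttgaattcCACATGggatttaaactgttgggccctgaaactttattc
Aspn: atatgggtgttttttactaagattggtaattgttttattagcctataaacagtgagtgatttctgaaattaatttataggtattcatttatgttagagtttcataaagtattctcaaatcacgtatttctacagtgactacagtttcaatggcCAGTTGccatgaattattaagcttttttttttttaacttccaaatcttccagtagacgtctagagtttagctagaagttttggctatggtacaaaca
Fmod: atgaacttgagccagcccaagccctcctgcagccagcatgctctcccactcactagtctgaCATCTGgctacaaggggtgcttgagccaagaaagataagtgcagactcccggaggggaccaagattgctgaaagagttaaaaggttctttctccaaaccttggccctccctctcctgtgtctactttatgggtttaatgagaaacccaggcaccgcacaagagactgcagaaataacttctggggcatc
Tnmd: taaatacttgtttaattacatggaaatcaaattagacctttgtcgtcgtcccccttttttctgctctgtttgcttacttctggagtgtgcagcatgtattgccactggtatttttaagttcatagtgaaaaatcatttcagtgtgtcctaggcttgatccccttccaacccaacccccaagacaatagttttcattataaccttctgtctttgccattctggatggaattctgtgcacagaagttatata
*Ogn* held 3 such matches, *Aspn* and *Fmod* 1 each and *Tnmd* 0, and 66.0% of 27025 mouse promoters of this length held at least 1. TATAAA on either strand was matched 2 times in *Ogn*, where both matches overlapped, 2 times in *Aspn* and 0 times in *Fmod* and *Tnmd*, against 12.97% of promoters with at least 1. These are descriptions of letters in 250 bases and not of binding.

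Library totals ran from 17228982 to 24694828 counts, so the filter minimum of 0.5 CPM stood for 8.61 to 12.3 counts. No library was left out. Counts assigned to mouse *Insr* were 22.3 to 24.8 CPM in DKO and 65.5 to 99.7 in the 4 receptor lines, and *Igf1r* was at 24.7 to 28.6 in DKO and 29.7 to 35.7 in the others. Gene counts do not show whether the floxed exons were lost. The paper reports that neither receptor was detected in DKO cells, as mRNA or as protein. In the receptor lines *Insr* may include reads of the human receptor, so its higher level there is no measure of the mouse gene. How many such reads were counted was not tested. Of 9 preadipocyte markers 6 passed the filter, with a summed level of 785 to 891 CPM over all libraries, and *Dlk1*, *Ebf2* and *Zfp423* did not. Within that sum single markers went both ways. In IR against DKO *Cd34* and *Pdgfra* were higher, and *Pparg*, *Pdgfrb*, *Cebpb* and *Ly6a* lower. In JMO against DKO *Cd34* and *Pdgfra* were higher, and *Pdgfrb* and *Ly6a* lower. In K1030R against IR *Pparg* and *Pdgfrb* were higher, and *Pdgfra* lower. Of 6 markers of mature fat cells only *Fabp4* passed, and *Cidec* and *Lep* were at 0. The summed level of these 6 was 4.13 to 4.88 in JMO, 2.50 to 2.60 in DKO and at most 1.96 in the lines with the intracellular domain. *Acan* (cartilage), *Myf5* and *Myod1* (muscle), *Adgre1* (macrophages) and *Kcnj8* (pericytes) were at 0 in every library, but other genes of those lists were expressed. The 5 cartilage markers, of which 2 passed the filter, summed to 27.5 to 30.3 CPM in DKO, 22.8 to 25.6 in JMO and 17.1 to 26.8 in the lines with the intracellular domain. The 5 muscle and the 5 immune markers, of which 1 each passed, summed to at most 5.31 and 1.36. The summed pericyte and smooth muscle markers, of which 2 of 4 passed the filter, were 76.5 to 88.2 in JMO, 97.1 to 104 in DKO and 109.7 to 135 in the other lines. Tenocyte markers, all members here, summed to 32.2 to 38.3 in JMO, 25.7 to 26.5 in DKO and 17.6 to 25.2 in the others. Schwann cell markers summed to 2.76 to 3.35 in DKO, 4.15 to 4.96 in JMO and 4.44 to 7.41 in the others. Osteoblast and endothelial markers summed to 52.3 to 68.5 and 7.76 to 18.3 over all lines. The part of these shifts in the values below was not tested.

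The lines differed in *Ogn* and *Aspn* at high expression, in *Dcn*, *Lum* and *Tnmd* at very low expression, in *Fmod* in JMO, and in *Mkx* in the opposite direction. Per kilobase of the longest coding transcript, *Bgn* was by far the most abundant, at 899 to 1024 CPM in the 9 group means. *Ogn* followed at 70.9 to 237 and *Aspn* at 61.5 to 193. *Scx* lay between 4.67 and 7.43, *Fmod* between 1.16 and 4.53 and *Mkx* between 2.07 and 4.53 on the same scale. The remaining 4 were rare, with at most 2.11 for *Dcn*, 0.850 for *Tnmd*, 0.336 for *Lum* and 0.0277 for *Thbs4*. All other levels below are CPM after TMM scaling, not divided by length.

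**Figure D1:**
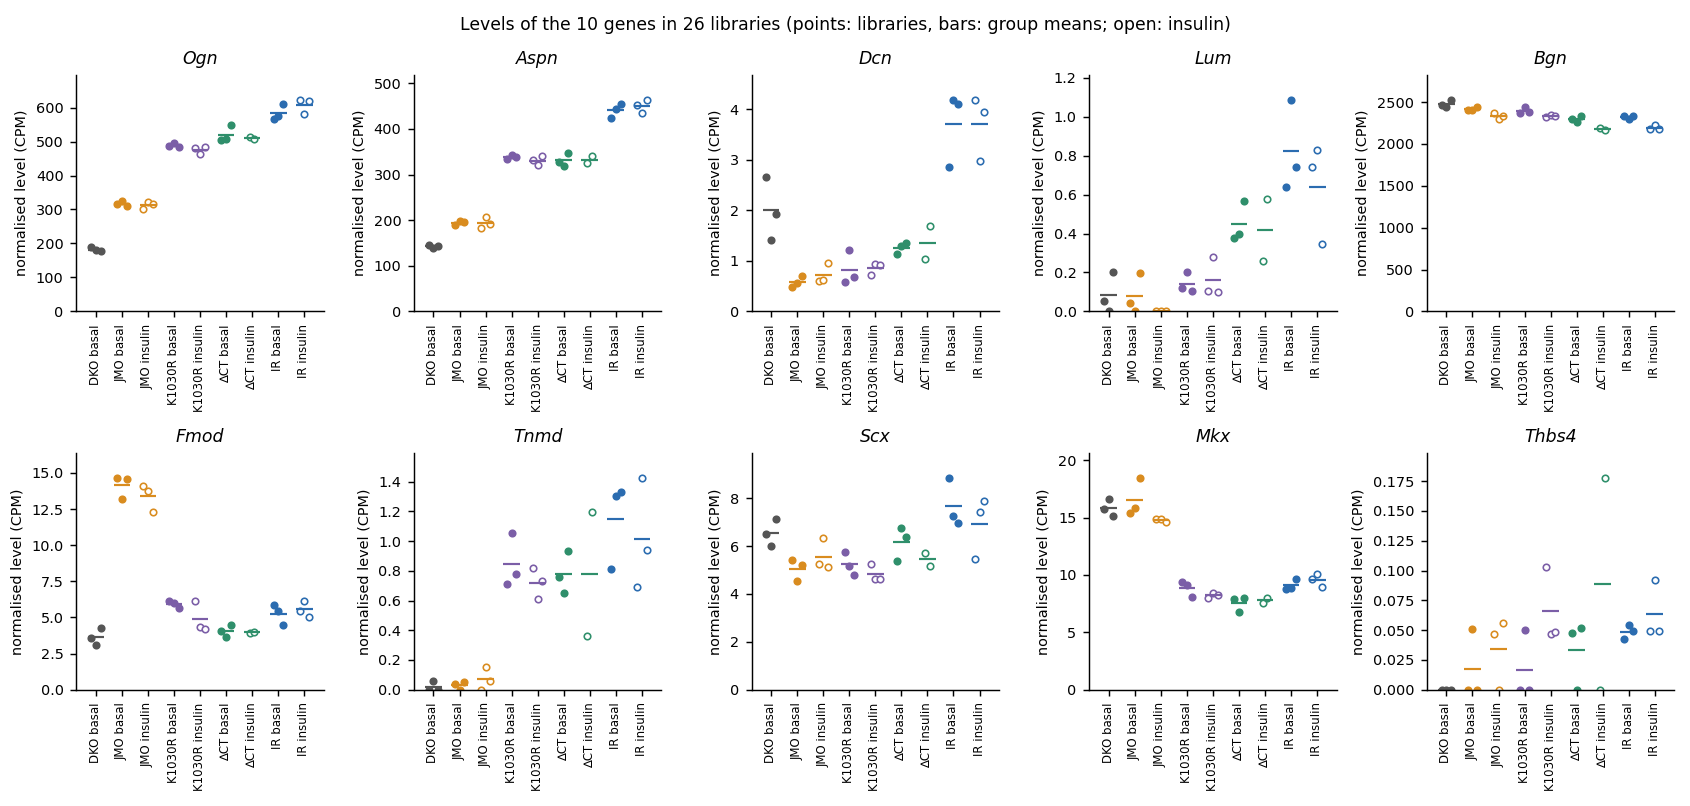
Level of each of the 10 genes in every library, in CPM after TMM scaling, by line (DKO, JMO, K1030R, ∆CT, IR). Filled points are basal and open points insulin-treated dishes. *Ogn* and *Aspn* stand in the order DKO, JMO, the other lines, and *Fmod* is highest in JMO.

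With 17 libraries of the lines with the intracellular domain set against 9 without it, 3 genes had ranges that did not overlap and were higher with the domain, *Ogn*, *Aspn* and *Tnmd*, where 5.21% of all genes tested did so. *Mkx* was the 1 gene with a range wholly lower with the domain, against 5.43% of all genes. The ranges of the other 6 overlapped. *Dcn*, *Ogn* and *Aspn* were higher in all 6 IR libraries than in the other 20, as were 3.80% of all genes, and *Fmod* was higher in all 6 JMO libraries than in the other 20, as were 2.81%. *Ogn* and *Aspn* were also the 2 genes whose libraries from receptor lines all exceeded the DKO libraries, against 7.52% of all genes. The genes were chosen with this split known, so nothing is read from these counts.

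Differences between lines that share the intracellular domain, and between the 2 lines that lack it, were tested. The genes were picked with their levels in these lines known, so the counts of calls are not independent of the choice. K1030R against IR in the basal state had 5 of 9 genes lower and 0 higher (*Dcn*, *Lum*, *Ogn*, *Aspn* and *Scx*) in edgeR's quasi-likelihood test, where 30.2% of all genes were called in either direction and 16.3% were called lower. The median of the 9 differences was −0.38 on the log2 scale and that of all genes −0.011. With insulin, K1030R had the same 5 genes lower, where 17.3% of all genes were called lower, and *Bgn* higher (16.7%), 6 of 9 where 34.0% of all genes were called. ∆CT against IR had 5 genes lower in the basal state, *Dcn*, *Ogn*, *Aspn*, *Fmod* and *Mkx* (26.1% of all genes called, 14.8% lower), and these 5 again with insulin (19.7%, 11.6% lower). These comparisons share the IR libraries and are not independent of each other. *Lum* passed the filter chiefly through its level in IR, so its calls against IR are not independent of the filter. ∆CT against K1030R gave 1 call in each state, *Fmod* in the basal state (3.43% of all genes called, 1.95% lower) and *Bgn* with insulin (5.03%, 2.78% lower), both lower in ∆CT. JMO against DKO in the basal state gave 3 genes higher (*Fmod*, *Ogn* and *Aspn*) and 2 lower (*Dcn* and *Scx*), 5 of 9 where 34.3% of all genes were called, 16.9% higher and 17.4% lower. Among the 9, *Lum* (5 counts in basal JMO and 6 in DKO) and *Tnmd* (2 and 1) had too few counts to be compared there.

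A stricter test asked for a difference beyond 1.5-fold. It kept *Dcn* and *Lum* for K1030R against IR in the basal state (1.04% of all genes) and *Dcn* with insulin (1.25%). *Dcn* alone was kept for ∆CT against IR in the basal state (0.708%) and with insulin (0.656%). *Dcn*, *Ogn* and *Fmod* were kept for JMO against DKO (2.11%). The other called differences between IR and its variants were estimated at under 1.5-fold, except that of *Lum* with insulin at 3.83-fold.

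**Figure D2:**
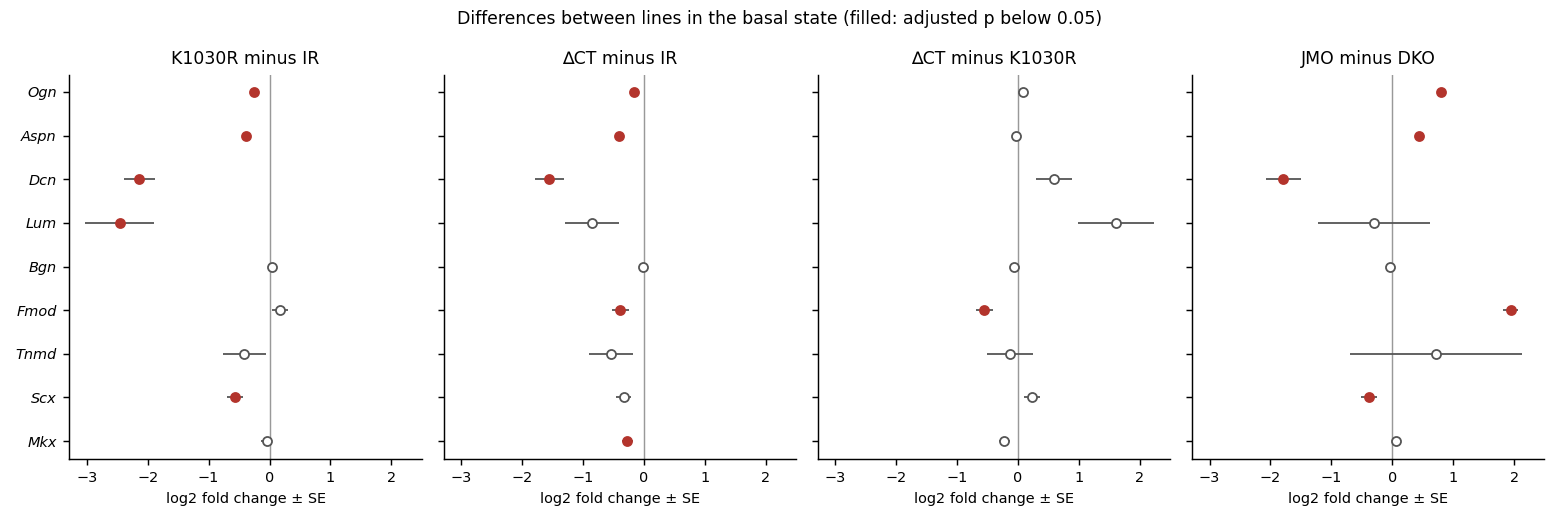
Differences between lines in the basal state on the log2 scale, with standard errors from edgeR, for the 9 genes that passed the filter, in 4 panels (K1030R minus IR, ∆CT minus IR, ∆CT minus K1030R, JMO minus DKO). Filled points have an adjusted p below 0.05. *Dcn* lies left of 0 in the panels against IR and in JMO minus DKO, and *Fmod* has the largest rise in JMO minus DKO at 1.94.

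*Ogn* encodes osteoglycin, a class III member found in bone, vessel wall and many connective tissues. Its level was 189, 180.4 and 177 CPM in the 3 DKO libraries and 317, 324 and 310.0 in the basal JMO libraries. It was 488, 496 and 485 in K1030R, 506, 509 and 547 in ∆CT and 565, 574 and 610.0 in IR. DKO, JMO and the other 3 lines formed separate ranges, K1030R lay below both ∆CT and IR, and ∆CT lay below IR, although the difference of 0.089 ± 0.035 between ∆CT and K1030R on the log2 scale did not pass the test. JMO exceeded DKO by 0.80 ± 0.036 on the log2 scale (SE, adjusted p = 2.08e-18 by edgeR's quasi-likelihood test). K1030R fell below IR, with a difference of −0.25 ± 0.035 (adjusted p = 8.91e-07) and ∆CT by −0.16 ± 0.035 (adjusted p = 0.000568), and the insulin-treated dishes gave −0.35 (adjusted p = 1.16e-09) and −0.25 (adjusted p = 1.12e-05). As a description, IR, K1030R and ∆CT exceeded DKO by 1.68, 1.43 and 1.52 on the log2 scale and JMO by 0.88, 0.63 and 0.72. The step from DKO to JMO was therefore close in size to the step from JMO to the lines with the domain.

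*Aspn* encodes asporin, a class I protein with a run of aspartates that binds collagen and transforming growth factor β. The DKO libraries had 146, 139.8 and 144 CPM and the basal JMO libraries 189, 197 and 196. K1030R had 334, 342 and 339, ∆CT 328, 319.7 and 346, and IR 425, 443 and 455. DKO, JMO, the pair of variant receptors and IR formed 4 ranges that did not overlap, while K1030R and ∆CT overlapped. JMO exceeded DKO by 0.44 ± 0.039 on the log2 scale (adjusted p = 3.91e-11, edgeR). K1030R and ∆CT fell below IR, with a difference of −0.38 ± 0.037 (adjusted p = 8.65e-10) and −0.41 ± 0.037 (adjusted p = 3.36e-10) in the basal state and by −0.45 (adjusted p = 1.66e-11) and −0.44 (adjusted p = 2.59e-09) with insulin. IR, K1030R and ∆CT stood above DKO by 1.62, 1.24 and 1.21, given without a test. Across the 9 group means *Ogn* and *Aspn* had a Pearson correlation of 0.974, a description over groups that share lines. *Aspn* shares 7 of its 2354 exon bases with exons of *Cenpp* on the opposite strand, and *Cenpp* had 168 to 293 counts per library.

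The neighbours on chromosome 13 were followed across the same lines. *Omd* (osteomodulin, a class II keratan sulfate proteoglycan of bone) was at 7.15 ± 0.495 CPM in DKO, 12.9 ± 1.10 in JMO, 12.3 ± 0.290 in K1030R, 13.1 ± 1.29 in ∆CT and 18.5 ± 1.47 in IR (SD, n = 3 each, basal). *Ecm2*, an extracellular matrix protein with leucine-rich repeats, was at 3.12 ± 0.0536, 5.33 ± 1.18, 5.76 ± 0.260, 5.60 ± 0.303 and 7.58 ± 1.18 in the same order. In JMO against DKO, *Omd* rose by 0.85 ± 0.11 (adjusted p = 6.39e-08) and *Ecm2* by 0.77 ± 0.14 (adjusted p = 3.56e-05) on the log2 scale in edgeR's test. In K1030R against IR they fell by 0.59 ± 0.095 (adjusted p = 9.40e-06) and 0.40 ± 0.12 (adjusted p = 0.0125), and in ∆CT against IR by 0.50 ± 0.093 (adjusted p = 0.000104) and 0.43 ± 0.12 (adjusted p = 0.00674). All 4 genes of the cluster were thus called in the same direction in each of these 3 comparisons. Of all genes, 16.9% were called higher in JMO against DKO. The shares called lower were 16.3% in K1030R against IR and 14.8% in ∆CT against IR. The genes around the cluster were looked at after these values had been seen. *Ippk*, upstream, was at 13.6 to 14.5 CPM in the 5 basal means, and *Cenpp*, which spans the cluster on the other strand, at 10.04 to 11.8. *Bicd2*, further upstream, was at 119 to 132. Some of these were called as well. *Cenpp* was higher in ∆CT against IR by 0.23 ± 0.083 (adjusted p = 0.0390, edgeR). *Bicd2* was lower in ∆CT against IR by −0.079 ± 0.028 (adjusted p = 0.0379) and in JMO against DKO by −0.079 ± 0.028 (adjusted p = 0.0277). *Nol8*, downstream, was highest in DKO at 36.8 ± 0.930 and lowest in IR at 24.4 ± 2.43. *Iars*, the next gene after *Nol8*, was lowest in DKO at 145 ± 3.77 and higher in JMO at 162 ± 6.47, IR at 178 ± 4.92, ∆CT at 195 ± 13.2 and K1030R at 204 ± 7.70. It rose with the cluster genes in JMO against DKO, by 0.16 ± 0.041 (adjusted p = 0.00237, edgeR), and was higher rather than lower in K1030R against IR, by 0.20 ± 0.041 (adjusted p = 0.000240).

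**Figure D3:**
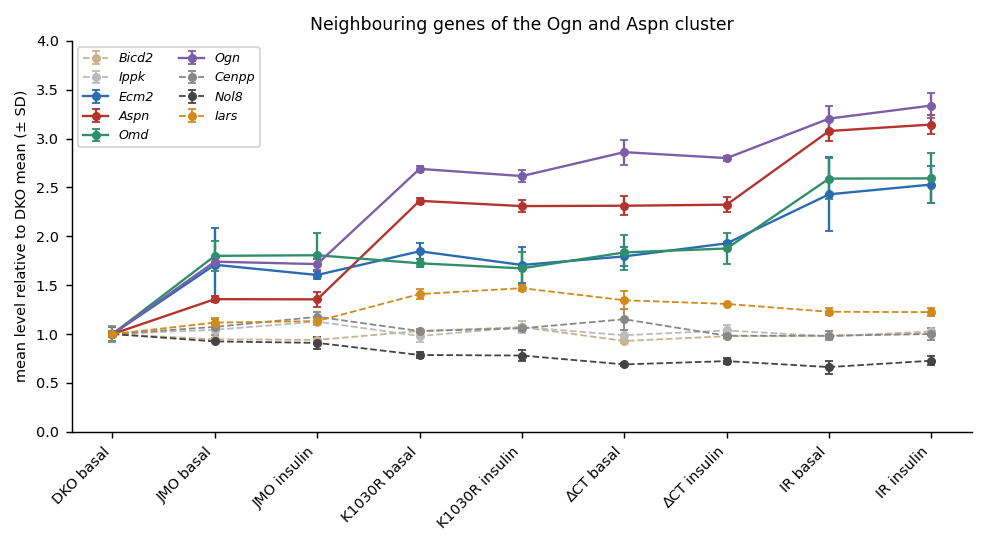
Mean level of each group divided by the DKO mean, on a linear axis with SD, for the leucine-rich repeat genes *Ecm2*, *Aspn*, *Omd* and *Ogn* of the chromosome 13 cluster (solid lines) and for *Bicd2*, *Ippk*, *Cenpp*, *Nol8* and *Iars* around it (dashed lines). The 4 cluster genes lie above DKO in each receptor line with IR highest, *Iars* lies above DKO with K1030R highest in the basal state, and *Nol8* lies below DKO.

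*Dcn* encodes decorin, the class I proteoglycan that is abundant in most connective tissue. It was rare here. The counts were 49, 25 and 48 in DKO, 12, 11 and 14 in basal JMO, 10, 24 and 13 in basal K1030R, 24, 26 and 26 in basal ∆CT and 67, 77 and 83 in basal IR. In CPM, IR ran from 2.86 to 4.18, DKO from 1.42 to 2.66, ∆CT from 1.14 to 1.35, K1030R from 0.592 to 1.21 and JMO from 0.488 to 0.694. IR and DKO were thus the highest lines and did not overlap with each other, and *Dcn* did not follow the presence of the domain. K1030R fell below IR, with a difference of −2.14 ± 0.25 on the log2 scale in the basal state (adjusted p = 4.48e-08) and by −2.09 ± 0.25 with insulin (adjusted p = 3.35e-08) in edgeR's test. ∆CT fell below IR, with a difference of −1.55 ± 0.23 (adjusted p = 4.56e-06) and −1.42 ± 0.26 (adjusted p = 0.000115), and JMO below DKO by −1.79 ± 0.29 (adjusted p = 6.22e-06). All 5 passed the 1.5-fold test. By the counts alone IR exceeded K1030R 4.36-fold (exact 95% interval 3.18 to 6.11), where this and the other intervals cover counting error only.

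*Lum* encodes lumican, a class II keratan sulfate proteoglycan best known from the cornea. There were 15, 20 and 15 counts in basal IR and 15, 18 and 7 with insulin, against 2, 4 and 2 and then 2, 6 and 2 in K1030R. ∆CT had 8, 8 and 11 and then 5 and 13, DKO 1, 0 and 5, and JMO 1, 0 and 4 and then 0, 0 and 0. Every IR library had more counts than every K1030R library. In CPM, IR ran from 0.346 to 1.09, and no library of another line exceeded 0.577. *Lum* thus passed the filter of 0.5 CPM chiefly through IR, and the tests against IR below are not independent of that filter. K1030R fell below IR, with a difference of −2.46 ± 0.56 on the log2 scale in the basal state (adjusted p = 0.000922, edgeR) and by −1.94 ± 0.55 with insulin (adjusted p = 0.00658). The second value moved to −2.60 without the insulin-treated K1030R replicate 2, and its adjusted p ran from 0.00294 to 0.0382 over the alternatives. The ratio of counts, IR over K1030R, was 5.65 in the basal state (exact 95% interval 2.66 to 13.8) and 3.94 with insulin (1.94 to 8.83). The ratios of IR to DKO and to JMO cross the split known when the genes were chosen, and are descriptions. IR exceeded DKO 8.19-fold (3.51 to 23.4). In insulin-treated cells IR had 40 counts where JMO had 0, and the exact 95% interval of that ratio began at 9.79. Its neighbours *Kera* and *Epyc* had 14 and 26 counts in all 26 libraries and were not tested.

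*Bgn* encodes biglycan, the class I relative of decorin on the X chromosome. It was the most even of the 10 genes. The highest group mean, 2477 ± 42.5 CPM in DKO, was 1.14-fold above the lowest, 2176 ± 11.8 in insulin-treated ∆CT (n = 2). In the basal state the libraries ran from 2403 to 2439 in JMO, 2368 to 2442 in K1030R, 2266 to 2327 in ∆CT and 2294 to 2331 in IR. With insulin K1030R was above IR by 0.087 ± 0.024 on the log2 scale (adjusted p = 0.00407, edgeR) and ∆CT below K1030R by −0.099 ± 0.026 (adjusted p = 0.0195). The latter call was lost without K1030R insulin replicate 2 or 3, ∆CT insulin replicate 1 or 2, or JMO insulin replicate 2, with no filter and with the minimum of 10 counts, with an adjusted p from 0.000609 to 0.184 over all alternatives. In linear terms these differences were 1.06-fold and 1.07-fold.

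*Fmod* encodes fibromodulin, a class II proteoglycan of tendon and cartilage that guides collagen fibril growth. Its level was 14.6, 13.2 and 14.6 CPM in basal JMO and 14.1, 13.8 and 12.3 with insulin. The 3 DKO libraries had 3.59, 3.07 and 4.24, and the lines with the domain lay between 3.65 and 6.17. JMO stood apart from every other line, including the other line without the domain. JMO also had the highest summed level of mature fat cell markers (4.13 to 4.88 CPM) and the lowest of pericyte and smooth muscle markers (76.5 to 88.2), whose part in this result was not tested. JMO exceeded DKO by 1.94 ± 0.12 on the log2 scale (adjusted p = 1.39e-14, edgeR), which is 3.84-fold, and passed the 1.5-fold test. As a description, IR, K1030R and ∆CT lay below JMO by 1.42, 1.26 and 1.81. ∆CT fell below K1030R, with a difference of −0.55 ± 0.14 (adjusted p = 0.0174) and below IR by −0.38 ± 0.14 in the basal state (adjusted p = 0.0365) and −0.49 ± 0.15 with insulin (adjusted p = 0.0209). None of these 3 calls held when each library was left out in turn. Against K1030R it was lost without K1030R basal replicate 1 or ∆CT basal replicate 1 or 2 and with only the groups compared (adjusted p from 0.00472 to 0.0730 over all alternatives). Against IR it was lost in the basal state without replicate 1 or 2 of either line, with DESeq2, with limma-voom and with only the groups compared (0.0109 to 0.202), and with insulin without IR replicate 2 or either ∆CT library (0.0103 to 0.129). *Prelp*, a class II relative near *Fmod*, was at 18.4 ± 1.06 CPM in JMO and 17.7 ± 1.498 in DKO and did not pass the test between them (0.053 ± 0.080, adjusted p = 0.661). *Btg2*, on the other side of *Fmod*, was called higher in JMO against DKO by 0.25 ± 0.050 (adjusted p = 0.000159, edgeR). Of all genes, 16.9% were called higher in that comparison.

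The 5 genes whose group means followed *Fmod* most closely, by Pearson correlation of log2 levels over the 9 groups among genes with at least 50 counts in every library, were *Itga1* (r = 0.993), *9230114K14Rik* (0.986), *Cgnl1* (0.982), *Aff3* (0.981) and *Igsf9b* (0.980). *Itga1* encodes the collagen-binding integrin α1 and was at 101 CPM in JMO against 69.2 to 80.3 in the other basal means. *Cgnl1*, a junction protein, was at 19.7 against 7.63 to 10.2, and *Igsf9b* at 11.8 against 3.78 to 5.26. *Fmod* served as the reference because its log2 levels ranged most widely among the genes with enough counts.

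*Tnmd* encodes tenomodulin, a type II membrane glycoprotein of tendon that is also expressed in adipose tissue. Summed over all libraries of a line it had 1 count in DKO, 6 in JMO, 92 in K1030R, 81 in ∆CT and 134 in IR. In the JMO line there were 1, 0 and 1 counts in the basal state and 0, 3 and 1 with insulin. Basal K1030R had 12, 21 and 15, ∆CT 16, 13 and 18 and IR 19, 24 and 27, and the insulin-treated dishes had 16, 13 and 15 in K1030R, 7 and 27 in ∆CT and 14, 31 and 19 in IR. No library with the domain had fewer than 7 counts and none without it more than 3. Over the 17 libraries with the domain there were 307 counts and over the 9 without it 7, a ratio of 23.5 after allowing for depth (exact 95% interval 11.3 to 58.9). This split chose the gene and is given as a description.

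The differences of *Tnmd* within each side of that split are given next. The low counts in both DKO and JMO were themselves part of the choice. In the basal state IR exceeded K1030R 1.32-fold by counts (exact 95% interval 0.8996 to 1.94), and with insulin 1.43-fold (0.961 to 2.15). K1030R was below IR by −0.41 ± 0.36 on the log2 scale (adjusted p = 0.430, edgeR) and ∆CT by −0.54 ± 0.36 (adjusted p = 0.296), so neither difference passed the test at this depth. JMO and DKO differed 1.89-fold with an interval from 0.0986 to 112, which sets no useful limit. Ratios to JMO, in contrast, cross the split that chose the gene. DKO and JMO reached at most 0.153 CPM, so *Tnmd* passed the filter through the lines with the domain alone. Against JMO the basal ratios were 36.3 for IR (9.68 to 306), 27.6 for K1030R (7.22 to 234) and 25.03 for ∆CT (6.56 to 213). In insulin-treated cells they were 15.1 (5.63 to 57.2), 10.6 (3.85 to 40.5) and 11.96 (4.26 to 46.4), given as descriptions like the basal ones.

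**Figure D4:**
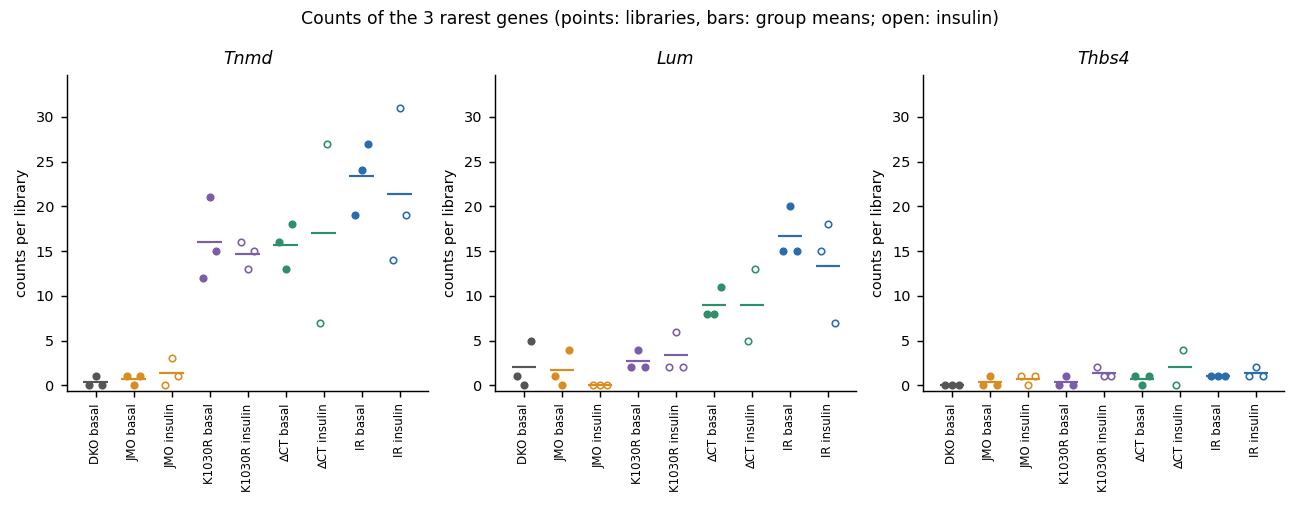
Raw counts per library of *Tnmd*, *Lum* and *Thbs4* by line, with filled points for basal and open points for insulin-treated dishes. *Tnmd* is at 0 to 3 in DKO and JMO and at 7 to 31 elsewhere, *Lum* is highest in IR, and *Thbs4* does not exceed 4 in any library.

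*Mkx* (chr18:6934518-7004780, minus strand) encodes the homeodomain factor Mohawk, which tendon fibroblasts need for collagen fibril growth. It had 15.1 to 16.6 CPM in DKO, 15.4 to 18.4 in basal JMO and 14.6 to 14.9 in insulin-treated JMO. The lines with the domain lay between 6.79 and 10.1, all below the others. As a description, IR, K1030R and ∆CT lay below DKO by 0.79, 0.84 and 1.06 on the log2 scale and below JMO by 0.86, 0.90 and 1.13 in the basal state, the opposite direction to *Tnmd*. JMO and DKO differed by 0.066 ± 0.077 (adjusted p = 0.557, edgeR), and K1030R and IR by −0.046 ± 0.089 (adjusted p = 0.754). ∆CT fell below IR, with a difference of −0.27 ± 0.090 in the basal state (adjusted p = 0.0236) and by −0.30 ± 0.10 with insulin (adjusted p = 0.0307). The first call was lost without IR basal replicate 3 or ∆CT basal replicate 2, and also with no filter, with DESeq2 and with only the groups compared (adjusted p from 0.0167 to 0.169 over all alternatives). The second was lost without IR insulin replicate 1 or 2, either insulin-treated ∆CT library or JMO insulin replicate 2, and also with no filter, with DESeq2 and with only the groups compared (0.0219 to 0.229). *Mkx* shares 201 of its 4095 exon bases with AC148004.2 on the same strand, a transcript that had at most 1.16 estimated counts in a library.

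*Scx* encodes scleraxis, the helix-loop-helix factor of tendon progenitors. Its group means ran from 4.83 ± 0.354 CPM in insulin-treated K1030R to 7.69 ± 1.004 in basal IR, a 1.59-fold range, and no neighbours in the order of the 9 means had separate ranges. Basal libraries ran from 6.97 to 8.84 in IR, 6.02 to 7.13 in DKO, 5.36 to 6.74 in ∆CT, 4.81 to 5.74 in K1030R and 4.54 to 5.41 in JMO. K1030R fell below IR, with a difference of −0.56 ± 0.13 on the log2 scale in the basal state (adjusted p = 0.000985, edgeR) and −0.52 ± 0.13 with insulin (adjusted p = 0.00197). JMO fell below DKO, with a difference of −0.38 ± 0.13 (adjusted p = 0.0230), and this call was lost without DKO replicate 3 or JMO basal replicate 2 and with DESeq2 (0.0133 to 0.125 over all alternatives). By group means *Scx* thus shared its high lines, IR and DKO, with *Dcn*. The 9 group means of the pair had a Pearson correlation of 0.917, given as a description. Within groups, over the 26 libraries, the correlation of the pair was −0.32.

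*Thbs4* encodes thrombospondin-4, a pentameric matrix protein of tendon and muscle. It had 21 counts in all, spread over 16 of the 26 libraries with at most 4 in any of them. The sums were 0 in DKO, 3 in JMO, 5 in K1030R, 6 in ∆CT and 7 in IR. These counts were too few to compare the lines. As a description, the ratio of libraries with the domain to those without it was 3.21 (exact 95% interval 0.938 to 17.03). Its relatives were abundant, *Thbs1* at 737 ± 49.2 CPM, *Thbs2* at 961 ± 1.36 and *Thbs3* at 59.2 ± 1.51 in DKO. *Thbs2*, an antiangiogenic matrix protein, fell in JMO against DKO by −0.50 ± 0.038 on the log2 scale (adjusted p = 1.03e-12, edgeR) and in K1030R against IR by −0.20 ± 0.039 (adjusted p = 0.000109). *Thbs1* fell in JMO by −0.39 ± 0.056 (adjusted p = 1.19e-05) and *Thbs3* rose by 0.13 ± 0.042 (adjusted p = 0.0141). *Comp* and *Cnmd*, relatives of *Thbs4* and *Tnmd* known from cartilage, had 129 and 1 counts in all libraries and did not pass the filter.

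Insulin for 15 min called none of the 9 genes in any of the 4 lines by edgeR's quasi-likelihood test, against 1.87% of all genes in IR, while the shares in K1030R, ∆CT and JMO were 0.156%, 1.01% and 0.364%. At an unadjusted p under 0.05 there were 1, 1, 1 and 2 of the 9 genes, and 2261, 937, 1477 and 1079 of all genes, in the same order. Leaving aside the sparse *Lum* and *Tnmd*, the other 7 genes differed by −0.15 to 0.077 on the log2 scale in IR. The ranges were −0.28 to 0.047 in K1030R, −0.17 to 0.13 in ∆CT and −0.16 to 0.31 in JMO. The highest value in JMO was that of *Dcn* (0.31 ± 0.34), which had few counts there. The lowest adjusted p was that of *Bgn* in IR, −0.079 ± 0.024 (adjusted p = 0.0741). DESeq2 and limma-voom each called this difference, with adjusted p of 0.00285 and 0.0200, as did edgeR without ∆CT basal replicate 3 (adjusted p = 0.0487). DESeq2 gave an adjusted p for only 4 of the 9 genes in IR, and limma-voom, which gave one for all 9, called no other. The difference in insulin effect between each variant line and IR passed the test for 0 members, against 0.370% of all genes for K1030R, 0.00649% for ∆CT and 0.279% for JMO. At an unadjusted p under 0.05 these 3 tests had 0, 0 and 1 members.

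**Figure D5:**
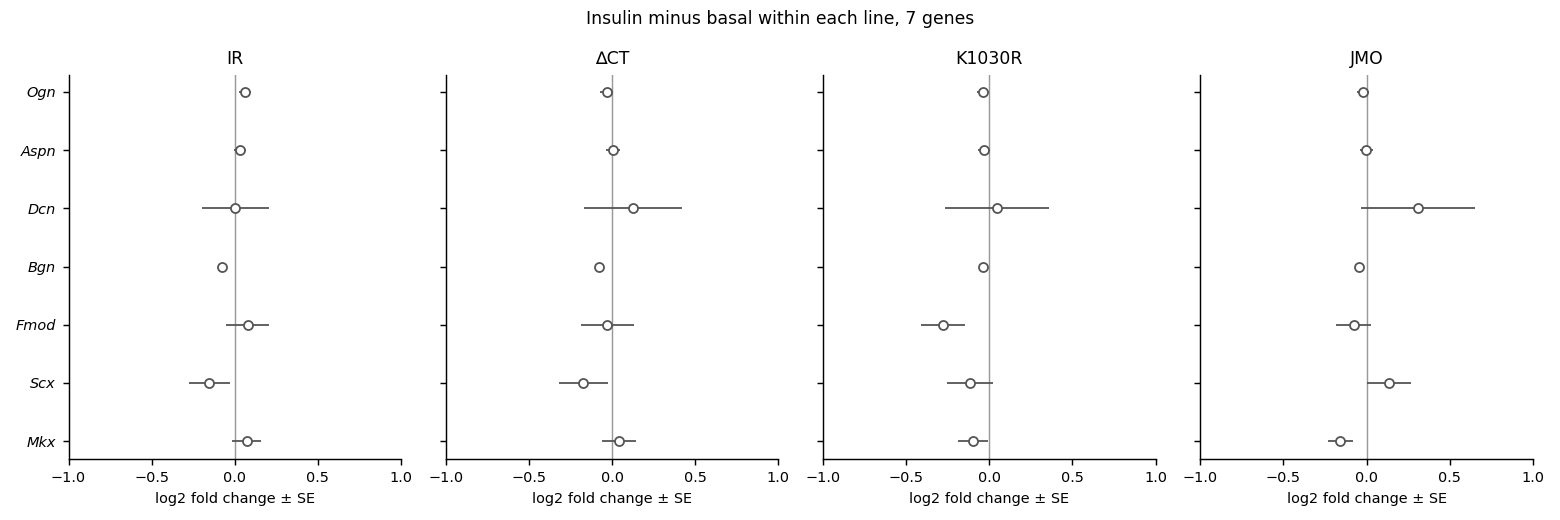
Difference between insulin-treated and basal dishes on the log2 scale with standard errors from edgeR, in each of the 4 receptor lines. The 7 genes are those tested other than *Lum* and *Tnmd*, and they include *Dcn*, which also had few counts. All values lie between −0.28 and 0.31, and none passed the test.

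Other small leucine-rich proteoglycans were read from a list of 12, of which 8 passed the filter. The list was chosen with earlier results of these data known. It holds *Ecm2* and *Omd*, already given above with *Ogn* and *Aspn*, so its counts repeat their calls and are descriptions. JMO against DKO had 4 of the 8 higher (*Podnl1*, *Ecm2*, *Omd* and *Chadl*) and 0 lower, where 16.9% and 17.4% of all genes were, with a median of 0.62 on the log2 scale against 0.0075 for all genes. K1030R against IR had 0 higher and 4 lower (*Podn*, *Prelp*, *Ecm2* and *Omd*), where 16.3% of all genes were lower, with a median of −0.32. ∆CT against IR had the same 4 lower, where 14.8% of all genes were, with a median of −0.31. *Podn*, which encodes podocan, fell most in K1030R, by −1.84 ± 0.29 (adjusted p = 6.65e-06 in edgeR's test), from 1.47 ± 0.191 CPM in IR to 0.404 ± 0.134. *Prelp* fell in ∆CT by −0.64 ± 0.090 (adjusted p = 1.30e-06) and in K1030R by −0.28 ± 0.088 (adjusted p = 0.0154). *Chadl*, a chondroadherin relative that limits collagen fibril formation, rose in JMO by 1.76 ± 0.39 (adjusted p = 0.000612). *Chadl* was rare, with 4, 4 and 7 counts in DKO and 30, 14 and 11 in basal JMO. All DKO libraries were below 0.5 CPM, so *Chadl* passed the filter through the receptor lines, and its call is not independent of the filter. As a description, *Chadl* also lay above DKO in IR, K1030R and ∆CT, by 1.33, 1.61 and 1.18. *Podnl1* rose in JMO by 0.48 ± 0.086 (adjusted p = 3.45e-05). *Tsku* (tsukushi) and *Optc* (opticin) did not pass the test in these 3 comparisons, with adjusted p of 0.102 and 0.367 for JMO against DKO. *Prelp* and *Tsku* were lower in IR than in DKO, by 0.32 and 0.28, while the other 6 were higher.

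Genes that work with these proteoglycans moved in both directions. The shares of all genes to set beside their counts are 34.3% called in JMO against DKO (16.9% higher and 17.4% lower) and 30.2% in K1030R against IR (16.3% lower). Of 9 tested tendon-associated genes, JMO against DKO had 3 higher and 3 lower and K1030R against IR 2 higher and 5 lower. The fibril-associated collagen gene *Col12a1* rose most in JMO, from 586 ± 1.16 to 949 ± 0.959 CPM (log2 difference 0.70 ± 0.030, adjusted p = 7.35e-19 in edgeR's test). *Col14a1*, another fibril-associated collagen gene, fell most in K1030R, from 2.29 ± 0.521 in IR to 0.608 ± 0.213 (−1.90 ± 0.30, adjusted p = 6.21e-06), and it lay above DKO by 2.71 in IR. *Tnc*, which encodes tenascin-C, was lower in IR at 28.2 ± 0.719 than in DKO at 61.2 ± 0.835.

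Of 20 tested enzymes that build chondroitin and dermatan sulfate chains, JMO against DKO had 1 higher and 8 lower, where 17.4% of all genes were lower. K1030R against IR had 2 higher and 6 lower, 8 of 20 where 30.2% of all genes were called. *Xylt1*, which attaches the first sugar of such chains, was at 27.4 ± 0.989 CPM in DKO, 16.99 ± 1.33 in JMO and 11.3 ± 0.477 in IR. Of 5 tested keratan sulfate enzymes 1 was higher and 3 lower in JMO, and 2 were higher and 1 lower in K1030R. The keratan sulfate sulfotransferase gene *Chst1* went from 22.9 ± 0.703 in DKO to 15.5 ± 0.472 in JMO and 12.3 ± 1.10 in IR.

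Of 13 tested binding partners of these proteoglycans, 5 were higher and 6 lower in JMO against DKO, where 34.3% of all genes were called. In K1030R against IR 1 was higher and 4 lower, 5 of 13 where 30.2% of all genes were called. *Tgfb2*, the growth factor that several of these proteins bind, rose most in JMO, by 1.32 ± 0.14 on the log2 scale (adjusted p = 2.30e-09 in edgeR's test), from 2.32 ± 0.0750 to 5.79 ± 0.408 CPM, and was at 9.16 ± 0.623 in IR. Of 8 tested proteases that cut them, 2 were higher and 3 lower in JMO, and 1 was higher and 4 lower in K1030R, each 5 of 8 beside the same shares. *Tll1*, a tolloid protease of the family that processes the propeptides of several of them, rose in JMO by 1.14 ± 0.16 (adjusted p = 5.54e-07). *Mmp13*, a collagenase that also cleaves fibromodulin, fell by −1.58 ± 0.18 (adjusted p = 9.07e-09), from 6.79 ± 0.811 to 2.28 ± 0.113. The medians of these 4 lists in JMO against DKO were −0.089 for the chain enzymes, −0.56 for the keratan sulfate enzymes, −0.047 for the binding partners and 0.057 for the proteases.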

How the data were processed

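Poly(A) RNA from 26 dishes was prepared with a KAPA kit and read as stranded single-end reads by the authors, who trimmed with fastp, quantified transcripts with kallisto (Ensembl 98) and deposited expected counts per gene made with tximport. Of these values 79.9% were whole, and they were rounded for the count models only. How strand was set in kallisto was not given in the sources used here. Genes with over 0.5 CPM in at least 4 libraries were kept, and edgeR 4.0.16 (R 4.3.3) fitted 1 quasi-likelihood model to all 9 groups with TMM scaling. Adjusted p-values are Benjamini-Hochberg over the 15402 genes, and calls are those below 0.05. A 1.5-fold test used the same fit. The members and all gene lists were chosen with earlier results of these data known. Named genes were the 10 members, the other leucine-rich proteoglycans and thrombospondins that passed the filter, the largest rise and fall of each other list past the 1.5-fold test in IR minus DKO, K1030R minus IR and JMO minus DKO, and the 5 genes most like the widest-ranging member. *Bicd2*, *Ippk*, *Cenpp*, *Nol8*, *Iars* and *Btg2* were added after their values were seen. Ratios of sparse counts have exact conditional 95% intervals (SciPy 1.17.1). Checked on simulated counts for K1030R minus IR over 15402 genes, the fit recovered 68% of genes changed 1.5-fold, 74% at 2-fold, 96% at 4-fold and 82% at 0.5-fold. The changed genes were drawn at random from all tested genes, so these shares need not hold for rare genes such as *Tnmd*, *Lum* and *Dcn*. Alternatives were RLE scaling, 2 other filters, DESeq2 1.42.0, limma-voom 3.58.1, only the groups compared, a replicate block and each library left out.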

Additional observations from a re-analysis of the deposited data

How the results depend on the processing

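Of 63 differences between lines, 28 were called. Of these, 21 kept their direction and stayed past the threshold under each of up to 33 alternatives, 7 lost the call under at least 1, and 0 reversed. Another 7 gained a call under some alternative. Under the 1.5-fold test the genes called numbered 2 for K1030R minus IR, 1 for ∆CT minus IR, 0 for ∆CT minus K1030R and 3 for JMO minus DKO in the basal state, and 1, 1 and 0 for the first 3 with insulin. It left 1 of the other small leucine-rich proteoglycans in JMO minus DKO, where 4 were called before. DESeq2 gave 3 for ∆CT minus IR and 2 for ∆CT minus K1030R in the basal state, where 7 and 6 genes had an adjusted p, and the fit to only the groups compared gave 3 and 0. For ∆CT minus K1030R with insulin no filter and a minimum of 10 counts each gave 0, and only the groups compared gave 2. For insulin in IR DESeq2 and limma-voom each gave 1, *Bgn*.

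Leaving out each library gave 0 to 1 genes for insulin in IR and 0 in the other lines, 5 for K1030R minus IR, 4 to 6 for ∆CT minus IR, 0 to 1 for ∆CT minus K1030R and 4 to 5 for JMO minus DKO in the basal state. With insulin it gave 6 to 7, 3 to 5 and 0 to 1 for the first 3, and for the list of relatives 4 to 5. The 4 genes with ranges that did not overlap stayed 4, also with plain library totals, an alternative chosen after seeing the data, as were leaving out libraries there and the alternatives for the relatives.

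Directions reversed only for differences that were not called. With libraries left out, these ran from −0.086 to 0.016 for *Mkx* and K1030R minus IR, −0.024 to 0.00071 for *Bgn* and −0.27 to 0.063 for *Tnmd* (∆CT minus IR and ∆CT minus K1030R), and −1.85 to 1.31 for *Lum* and −0.018 to 0.12 for *Mkx* in JMO minus DKO. With insulin they ran from −0.018 to 0.0088 for *Bgn* and −1.48 to 0.23 for *Tnmd* in ∆CT minus IR, and −0.026 to 0.051 for *Aspn* and −0.98 to 0.74 for *Tnmd* in ∆CT minus K1030R. *Bgn* in ∆CT minus IR was 0.0029 in the basal state with only the groups compared, and with insulin 0.0055 there, 0.00039 with RLE, 0.0043 with no filter, 0.0051 with the minimum of 10 counts and 0.00033 with DESeq2. *Tnmd* in ∆CT minus K1030R with insulin was −0.049 with limma-voom. The causes were not tested.

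Dishes with the same replicate number showed no shared deviation. The deviations of 100 pairs with the same number in different groups had a median correlation of −0.0011 (−0.11 to 0.096). Those of 200 pairs with different numbers had a median of −0.0016 (−0.15 to 0.15). Whether dishes were handled in pairs is not given in the labels. A replicate block gave 5 genes for K1030R minus IR, 5 for ∆CT minus IR, 1 for ∆CT minus K1030R and 5 for JMO minus DKO in the basal state, and 6, 5 and 1 for the first 3 with insulin, and 0 for insulin in each line.

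*Tnmd*, *Lum*, *Dcn* and *Thbs4* were limited by depth, with at most 85 counts in any library, and ∆CT with insulin by its 2 libraries.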
